A study of Mus musculus with 8 samples.

Results

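Molecular chaperones and the co-chaperones that work with them were followed in the mouse heart over the first postnatal week. The members were all genes whose symbol begins with Hspa, Hspb, Hspd, Hspe, Hsph, Hsp90, Dnaja, Dnajb or Dnajc, or with Bag or Cct and a digit. Hspbap and symbols holding -ps were left out, and the locus with the highest mean was taken for each symbol. This gave 88 genes among the 39614 loci with a gene symbol and the 80155 loci measured in all. The samples were whole hearts, without the atrial appendages, of male Hsd:ICR(CD-1) mice at postnatal day 1 (P1, n = 4) and postnatal day 7 (P7, n = 4). The labels name no treatment or engineered allele at either stage. Each heart came from a different animal and gave 1 library of ribosome-depleted total RNA. Values are FPKM, a fragment count divided by the length of the locus and by the size of the library, so levels of different genes can be compared on this scale. The files hold no fragment counts, and the depth behind each value is therefore unknown.

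Chaperones bind unfolded proteins and help them reach or keep their shape. Hsp70 proteins (most Hspa genes) hold exposed stretches of a client in a cycle of ATP binding. J-domain proteins (Dnaja, Dnajb and Dnajc) start this cycle, and Bag proteins and Hsp110 help to end it by nucleotide exchange. Hsp90 acts later on kinases, receptors and myosin. The chaperonins enclose their clients: the mitochondrial Hsp60 (Hspd1) with its lid Hsp10 (Hspe1), and the cytosolic TRiC ring (Cct genes with Tcp1), which folds actin and tubulin. Small heat shock proteins (most Hspb genes) bind unfolding proteins without ATP and are abundant in heart and skeletal muscle, where Hspb8 with Bag3 serves chaperone-assisted autophagy at the Z-disc. The prefix Hspb also takes in Hspbp1, a nucleotide exchange factor of Hsp70, and Hspb11, a protein of intraflagellar transport, which are not small heat shock proteins. It leaves out the small heat shock protein Cryab. Families follow the prefix throughout, so the Hsp110 family is Hsph1 alone. Hspa4 and Hspa4l, which are of the Hsp110 type, are counted with Hsp70. Heat shock factor, encoded by Hsf1, switches on many of these genes under stress.

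The 8 hearts differed in scale and in base composition, and both bear on the values below. Loci with FPKM of at least 1 numbered 28662 in P1 replicate 3 and 20269 to 22292 in the other hearts. The FPKM summed over all loci was 2136940 in P7 replicate 4 and 1038650 to 1400590 in the other hearts. The members held 0.173% of that sum in P7 replicate 4 and 0.217% to 0.438% in the others. The median ratio of a heart's annotated loci to their geometric mean over hearts ran from 0.779 to 1.16 among the P1 and from 0.929 to 1.30 among the P7 hearts, and dividing by it moved the median log2 fold change of all annotated loci from 0.19 to -0.01. The log2 deviation of each heart from the locus mean over the 8 hearts was followed against GC content. From loci of 40% to loci of 60% GC it changed by -0.48 to -0.23 in the 4 P1 hearts and by 0.26 to 0.55 in the 4 P7 hearts. These values compare hearts with each other and are not levels of GC-rich loci. Stage and this GC trend cannot be told apart by design. Removing the trend (GC correction, a step chosen after seeing the data) is therefore given beside the main results and the lists. The cardiomyocyte markers were abundant in every heart, with a summed FPKM over 10 genes of 22764 to 39618 in P1 and 31135 to 46996 in P7.

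In the P7 hearts 6 chaperone genes stood above the P1 hearts by the test and none below. They were Hspb8, Bag3, Bag6, Dnajc4, Dnajb12 and Hspa2, and Hspb8 had the largest fold change, 3.22-fold. Of the 88 members, 75 reached 1 FPKM or more in some heart and were tested with limma on log2(FPKM + 1). The other 13 stayed below that level (highest value 0.983) and were Cct6b, Cct8l1, Dnajb7, Dnajb8, Dnajb13, Dnajc5b, Dnajc5g, Dnajc6, Dnajc22, Hspa1a, Hspa1b, Hspa1l and Hspb9. A gene was called with a Benjamini-Hochberg adjusted p under 0.05 over all loci and mean FPKM differing at least 1.5-fold. The 6 calls are 8.0% of the tested members. The background was 8.14% of 17960 annotated loci called in either direction, 7.74% higher and 0.401% lower in P7, so that the share of called members was near that of all genes. At an unadjusted p under 0.05 the members numbered 26 of 75, and the annotated loci 5328 of 17960. In 15 of the 75 members every P7 heart lay above every P1 heart, against 17.3% of annotated loci. In 1 member, Dnajb4, every P7 heart lay below every P1 heart, against 2.69%. The median log2 fold change was 0.21 over the members and 0.19 over all annotated loci, and with median-ratio scaling it was -0.04 and -0.01. With GC correction it was 0.28 and 0.22. Log2 fold changes were positive in 52 of 75 members and 67.6% of annotated loci. With median-ratio scaling they were positive in 36 of 76 and 48.7%, and with GC correction in 57 of 75 and 73.1%. In a whole heart, a change in the number of cells of a type and a change in RNA per cell cannot be told apart.

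With median-ratio scaling the same 6 members were higher (background 7.42%) and 7 others of 76 tested were lower in P7 (background 3.85%): Hsp90aa1, Hspd1, Cct2, Cct3, Cct8, Dnajb4 and Dnajc13. With GC correction 3 members were higher (background 2.13%), namely Hspb8, Dnajb9 and Dnajc25, and none was lower. Hspb8 was the only member called on the authors' FPKM, with median-ratio scaling and with GC correction. Across the 75 members the log2 fold change was higher with a higher GC content of the transcript, with a Spearman rho of 0.62 (Pearson r = 0.59). Over 15430 annotated loci the values were 0.53 and 0.47. These are descriptions across genes measured in the same 8 libraries.

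**Figure D1:**
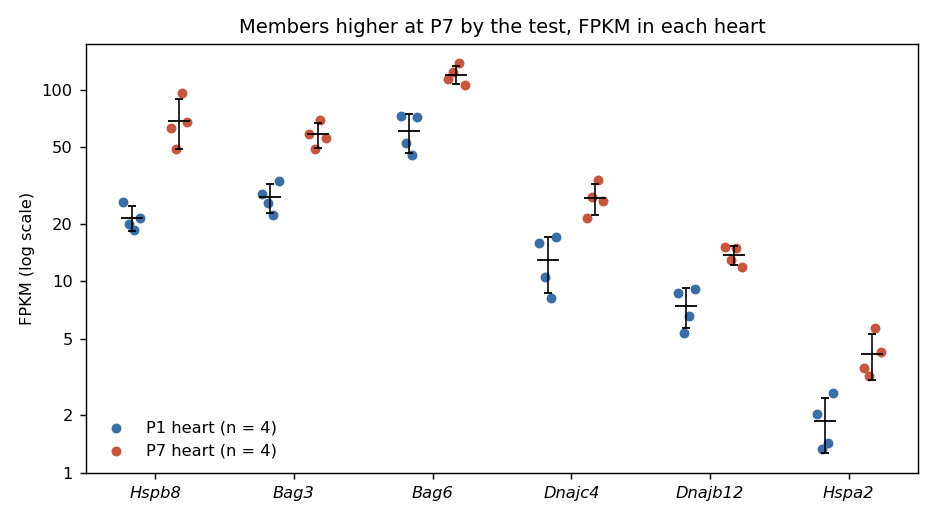
FPKM (log axis) of the 6 members called higher in P7, with a dot for each P1 heart (blue, n = 4) and P7 heart (red, n = 4) and bars for mean and SD. In each gene the P7 dots lie above the P1 dots, and Hspb8 stands farthest apart, 18.5 to 25.9 against 48.9 to 96.7.

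Hspb8 encodes the small heat shock protein that forms a complex with Bag3. It lies on chromosome 5 of GRCm38 (chr5:116408491-116422864, minus strand). Its FPKM was 25.9, 19.99, 18.5 and 21.3 in the P1 hearts and 63.1, 48.9, 96.7 and 67.6 in the P7 hearts. The lowest P7 heart was above the highest P1 heart, and P7 replicate 3 was the highest. The mean rose from 21.4 ± 3.18 to 69.1 ± 20.1 (SD over 4 hearts per stage), or by 1.61 on the log2 scale (standard error, SE, of 0.22 and adjusted p = 0.00587 by limma). It was 1.35 with median-ratio scaling (adjusted p = 0.0027) and 1.46 with GC correction (adjusted p = 0.0128). The call held with each of the 8 hearts left out.

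Bag3, the partner of Hspb8 and a nucleotide exchange factor of Hsp70, lies on chromosome 7 (chr7:128523581-128547078, plus strand). The P1 hearts had FPKM of 28.6, 25.6, 22.2 and 33.5, and the P7 hearts 58.9, 48.98, 69.8 and 56.1. The groups did not overlap. The mean rose from 27.5 ± 4.79 to 58.5 ± 8.65 (SD over 4 hearts per stage), or by 1.06 on the log2 scale (SE 0.19, adjusted p = 0.0163 by limma). With GC correction it was 0.74 and the adjusted p was 0.0790, which ended the call although the P7 hearts still lay above the P1 hearts. The call was also lost when replicate 2 of P1 or replicate 1 or 3 of P7 was omitted, where the adjusted p reached 0.0701. The FPKM ratio of Hspb8 to Bag3 within a heart was 0.636 to 0.902 at P1 and 0.998 to 1.38 at P7.

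Bag6 encodes a scaffold protein that shields hydrophobic segments of newly made membrane proteins (chr17:35135178-35147322). Its FPKM was 73.2, 52.6, 45.6 and 71.9 in P1 and 113, 123, 137 and 106 in P7, with no overlap. The mean rose from 60.8 ± 13.8 to 120 ± 13.4 (SD over 4 hearts per stage), or by 0.99 on the log2 scale (SE 0.21, adjusted p = 0.0248 by limma). Its transcript is GC-rich (59.9%), and with GC correction the log2 fold change was 0.54 with an adjusted p of 0.198. The call held in 4 of 8 fits that left out a heart, and was lost without P1 replicate 2 or 3 and without P7 replicate 1 or 3.

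Dnajc4 (chr19:6987908-6992600), a J-domain protein with a membrane segment, had FPKM of 15.9, 10.5, 8.22 and 16.99 in P1 and 21.4, 27.5, 33.8 and 26.2 in P7. The mean rose from 12.9 ± 4.21 to 27.2 ± 5.12 (SD over 4 hearts per stage), or by 1.06 on the log2 scale (SE 0.24, adjusted p = 0.0334 by limma). Dnajb12 (chr10:59879556-59899302), a J-domain protein of the endoplasmic reticulum membrane, had FPKM of 8.69, 5.39, 6.58 and 9.08 in P1 and 15.2, 12.9, 14.9 and 11.9 in P7. Its groups did not overlap, as those of Dnajc4 did not. The mean of Dnajb12 rose from 7.43 ± 1.75 to 13.7 ± 1.61 (SD over 4 hearts per stage), or by 0.82 on the log2 scale (SE 0.20, adjusted p = 0.0402 by limma). Hspa2 (chr12:76404176-76406934), an Hsp70 best known from male germ cells, was weak, with FPKM of 2.04, 1.34, 1.43 and 2.61 in P1 and 3.55, 3.19, 5.71 and 4.29 in P7. The mean of Hspa2 rose from 1.85 ± 0.591 to 4.18 ± 1.12 (SD over 4 hearts per stage), or by 0.86 on the log2 scale (SE 0.22, adjusted p = 0.0470 by limma). All 3 calls were lost with GC correction, with adjusted p of 0.161 for Dnajc4, 0.154 for Dnajb12 and 0.136 for Hspa2. Dnajc4 was called in 2 of 8 fits that left out a heart, and Dnajb12 and Hspa2 in 1 of 8, the fit without P1 replicate 4. In the GENCODE M21 annotation no exon of another gene overlaps the exons of these 6 genes.

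Heat shock factor binds inverted repeats of GAA. Promoters, 250 bases before to 50 after the start, were available from RefSeq (GRCm38.p6) for 72 of the 88 members. The other 16, among them Hspa8, Hspa9, Hsp90aa1 and Hsp90ab1, could not be searched. They were searched on both strands for the blocks GAA and TTC in either order with any 2 bases between them (short motif), a pattern that reads the same on the other strand. They were also searched for 3 such blocks in alternation with any 2 bases between neighbours (long motif), in which the short motif occurs in overlapping copies. The short motif was found in 21 of the 72 members (29.2%) and 16.97% of 27025 genes. The long motif was found in 4 members (5.56%), Hspd1, Hspe1, Dnajb6 and Hsph1, and in 0.662% of genes. Counted by promoter, 15.1% of all 32851 held the short motif and 0.603% the long. Of the 6 called genes Hspb8 and Bag3 held the short motif, in the same 8 letters, and no match was found in the windows of the other 4. Both matches lie after the start, from base 3 in Hspb8 and from base 43 in Bag3. The stretches below are written 5′ to 3′ on the strand of the gene, with the matched letters in capitals. The first pair shows the called genes, the next 3 show other small heat shock proteins and a heat-inducible Hsp70, and the last 4 show genes of other families without a call on the authors' FPKM scale.
Hspb8 chr5:116422843-116422872 (minus): gaagccaggaGAAGTTTCtaggctcgcgag
Bag3 chr7:128523603-128523632 (plus): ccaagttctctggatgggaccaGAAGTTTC
Hspb1 chr5:135887801-135887830 (plus): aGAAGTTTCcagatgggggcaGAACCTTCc
Hspb6 chr7:30553170-30553199 (plus): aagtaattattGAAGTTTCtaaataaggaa
Hspa1b chr17:34959324-34959353 (minus): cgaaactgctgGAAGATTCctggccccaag
Hspe1 chr1:55088053-55088082 (plus): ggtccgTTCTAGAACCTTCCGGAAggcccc
Dnajb6 chr5:29735844-29735873 (plus): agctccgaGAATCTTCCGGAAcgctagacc
Dnajb4 chr3:152193846-152193875 (minus): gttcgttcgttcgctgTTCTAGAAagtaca
Cct2 chr10:117063399-117063428 (minus): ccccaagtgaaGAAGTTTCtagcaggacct
The letters GAAGTTTC thus stand in the windows of Hspb8, Bag3, Hspb1 and Hspb6, and also in that of Cct2, whose fold change was of the opposite sign. The stretch of Hspe1 serves the window of Hspd1 as well, since 215 bases lie between the starts of these genes on opposite strands. A match is a description of the sequence, and binding was not measured.

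Among the families of members, the Hspb genes held the highest single level. All 8 tested Hspb genes had positive log2 fold changes (0.00 to 1.61, median 0.42), against 67.6% of annotated loci, and Hspb8 alone was called. With median-ratio scaling the median was 0.16 and Hspb3 was negative (-0.24), and with GC correction it was 0.15 with 4 genes positive and 4 negative. Over all annotated loci the GC-corrected median was 0.22, and 73.1% were positive. Without Hspbp1 (0.41) and Hspb11 (0.30), the 6 tested small heat shock proteins among the members had a median of 0.51. It was 0.25 with median-ratio scaling and 0.15 with GC correction, where 3 were positive and 3 negative. Cryab, a small heat shock protein outside the symbol rule, had a mean of 296 FPKM over the 8 hearts, against 241 for Hspb7. It is in none of the Hspb medians, sums, shares or ratios given here. Hspb7, the small heat shock protein of heart muscle, was the most abundant member over all hearts. Its FPKM was 225, 190, 113 and 151 in P1 and 292, 271, 337 and 345 in P7, without overlap. The log2 fold change was 0.91 (SE 0.24) and just missed the threshold, with a limma adjusted p of 0.0523. With GC correction it was 0.53 with an adjusted p of 0.265.

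Hspb1 (Hsp25 of the mouse), which protects actin filaments, had FPKM of 133, 95.2, 97.1 and 99.4 in P1 and 129, 122, 138 and 125 in P7. P1 replicate 1 overlapped the P7 hearts, and the log2 fold change was 0.29 (adjusted p = 0.410), or -0.18 with GC correction. Hspb6, a small heat shock protein of muscle also known as Hsp20, was at 25.4 in P7 replicate 1, within the P1 range of 25.02 to 33.4, and at 48.0 to 55.2 in the other P7 hearts. Its log2 fold change was 0.59 (adjusted p = 0.221). Exons of Gm38670, Lin37 and Proser3 overlap those of Hspb6, so its reads may be mixed with theirs. Hspb2 had 36.1 ± 6.87 at P1 against 48.4 ± 6.36 at P7 (SD over 4 hearts), with a log2 fold change of 0.42 (adjusted p = 0.270) and of -0.02 with GC correction. Its exons overlap those of Cryab on the other strand, and whether the counting used strand is not stated, so reads of these genes may be mixed. The remaining Hspb genes reached at most 28.7 FPKM, and Hspb9 stayed under 1 in every heart.

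The ratios of small heat shock proteins within a heart need no scaling between hearts. No test was made of these or of any other ratio given here. Ratios of Bag3 to Bag1, Hspa8 to Hspa1b, summed Hsp60/Hsp10 to Hsp70 and summed Dnajc to Hsp70 overlapped between stages, whereas that of Hspb8 to Cct8 did not. Hspb8 and Hspb7 were themselves without overlap between stages, so their ratios are no separate result. How often ratios of other gene pairs lie apart was not computed. The FPKM ratio of Hspb8 to Hspb1 was 0.190 to 0.214 at P1 and 0.401 to 0.699 at P7. That of Hspb7 to Hspb1 was 1.16 to 2.00 and 2.22 to 2.76. Neither ratio overlapped between stages, and with GC correction they were again apart, at 0.174 to 0.190 against 0.485 to 0.761 for Hspb8 and 1.18 to 1.96 against 2.37 to 2.80 for Hspb7.

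All 6 Bag genes had positive log2 fold changes (0.00 to 1.06), against 67.6% of annotated loci, and the family had the highest median of all, 0.90. The median was 0.64 with median-ratio scaling and 0.55 with GC correction, and all 6 were positive in the latter, whereas Bag4 was negative (-0.21) with median-ratio scaling. Besides Bag3 and Bag6, Bag1, a nucleotide exchange factor that links Hsp70 to the proteasome, had 45.8 ± 23.5 at P1 against 77.2 ± 26.6 at P7 (SD over 4 hearts). Its hearts overlapped, since P1 replicate 4 reached 79.4, and the log2 fold change was 0.81 (adjusted p = 0.207). Bag2, which inhibits the ubiquitin ligase that Stub1 encodes, had a log2 fold change of 0.99 (adjusted p = 0.118). Bag4 and Bag5 had means of 3.58 to 8.33 FPKM and log2 fold changes of 0.00 and 0.24.

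Of the 10 tested Hsp70 genes the most abundant were the forms of unstressed cells, Hspa8, Hspa9 and Hspa5. Hspa8 encodes the constitutive cytosolic Hsc70. Its FPKM was 177, 184, 127 and 257 in P1 and 206, 162, 298 and 218 in P7, with wide overlap. The log2 fold change was 0.26 (adjusted p = 0.557), and it was -0.0053 with median-ratio scaling and 0.42 with GC correction. The locus in the files also carries small nucleolar RNA genes.

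Hspa9 encodes the Hsp70 of the mitochondrial matrix. Its FPKM was 206, 202, 159 and 327 in P1 and 143, 112, 262 and 186 in P7, with a log2 fold change of -0.37 (adjusted p = 0.476). The hearts overlapped, but the ratio of Hspa8 to Hspa9 within a heart did not. It was 0.785 to 0.909 in P1, below 1 in every heart, and 1.14 to 1.46 in P7, above 1 in every heart. Their transcripts have a like GC content, 45.9% in each case, and GC correction left the ratio at 0.785 to 0.910 and 1.14 to 1.45. Hspa5, the Hsp70 of the endoplasmic reticulum (BiP), had 123 ± 36.0 at P1 against 124 ± 29.4 at P7 (SD over 4 hearts). Its log2 fold change was 0.02, or -0.25 with median-ratio scaling and 0.19 with GC correction.

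The heat-inducible Hsp70 genes were scarcely expressed. Hspa1a was between 0.0477 and 0.264 FPKM and Hspa1b between 0.149 and 0.635 over the 8 hearts, below the level of testing. These neighbouring genes are near-identical copies, and how reads were divided between them is uncertain. The inducible Hsp110 gene Hsph1 was at 1.89 to 3.34 FPKM, with a log2 fold change of -0.05. Hspa4 and Hspa4l, counted with Hsp70 by their symbols, had means of 64.2 and 12.4 FPKM over the 8 hearts. Their log2 fold changes were -0.10 and -0.06. Hspa12b, a distant Hsp70 found in endothelial cells, had 2.86 ± 1.24 at P1 against 5.89 ± 1.85 at P7 (SD over 4 hearts) and a log2 fold change of 0.85 (adjusted p = 0.0887). Over the Hsp70 family the median log2 fold change was -0.02, with -0.28 under median-ratio scaling and 0.21 under GC correction. Over all annotated loci these medians were 0.19, -0.01 and 0.22.

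**Figure D2:**
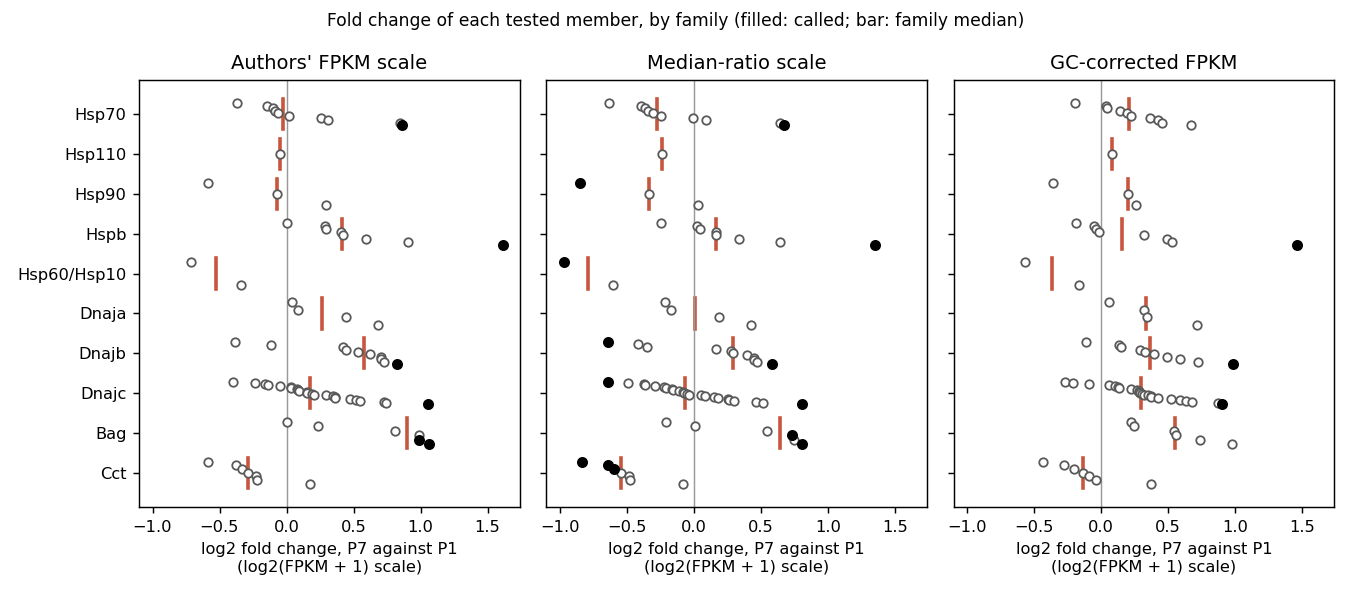
Log2 fold change (P7 against P1, log2(FPKM + 1) scale) of each tested member, by family, on the authors' FPKM scale (left), with median-ratio scaling (middle) and with GC correction (right), where filled points are called and red bars are family medians. The Bag, Hspb, Dnajb and Dnaja medians are positive and the Hsp60/Hsp10 and Cct medians negative in all 3 panels (Dnaja at 0.01 in the middle), while the Hsp70, Hsp110, Hsp90 and Dnajc medians change sign between panels. Over all annotated loci the medians were 0.19, -0.01 and 0.22 from left to right.

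The FPKM ratio of the cytosolic Hsp90 genes did not overlap between the stages, although neither gene was called on the authors' FPKM scale, and the ratio was not tested. Hsp90ab1 encodes the constitutive cytosolic form and Hsp90aa1 the inducible form, which also serves the folding of muscle myosin. Hsp90aa1 had FPKM of 55.0, 65.3, 52.1 and 81.4 in P1 and 40.4, 30.5, 53.0 and 44.0 in P7. Only P7 replicate 3 reached into the P1 range, and the log2 fold change was -0.59 (SE 0.22, adjusted p = 0.176 by limma). With median-ratio scaling it fell by 0.85 on the log2 scale and was called (adjusted p = 0.00793), whereas with GC correction it was -0.36 (adjusted p = 0.397). Hsp90ab1 had 187, 180, 151 and 214 in P1 and 209, 188, 292 and 217 in P7, with a log2 fold change of 0.30 (adjusted p = 0.437). The ratio of Hsp90ab1 to Hsp90aa1 was 2.63 to 3.39 at P1 and 4.94 to 6.14 at P7. With GC correction it was 2.78 to 3.65 and 4.51 to 5.38, again without overlap. Hsp90b1, the form of the endoplasmic reticulum, had 126 ± 26.4 at P1 against 119 ± 14.9 at P7 (SD over 4 hearts) and a log2 fold change of -0.07, or 0.20 with GC correction. The locus of Hsp90b1 in the files also carries Gm15344 and AC152453.1.

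**Figure D3:**
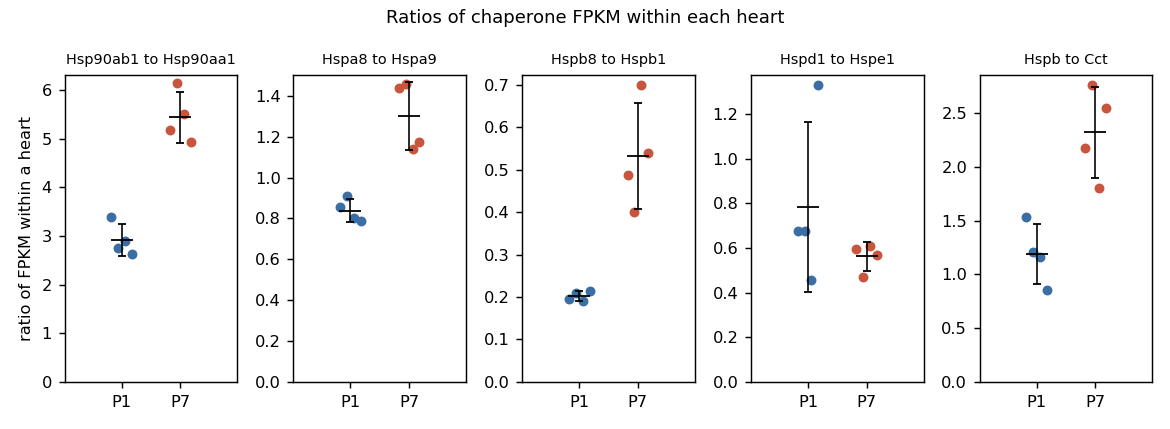
Ratios of FPKM within each heart for 4 pairs of genes and for the summed Hspb over the summed Cct genes, with a dot per heart (P1 blue, P7 red, n = 4 each) and bars for mean and SD. The stages are apart in each panel except Hspd1 to Hspe1, where they overlap, and with GC correction the Hspb to Cct ratio overlaps too.

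Mean chaperonin RNA was lower in P7, with no call on the authors' FPKM scale. Hspd1 (Hsp60) had FPKM of 144, 148, 130 and 201 in P1 and 73.4, 70.6, 136 and 109 in P7. P7 replicate 3 overlapped the lowest P1 heart, and the log2 fold change was -0.71 (SE 0.25, adjusted p = 0.146 by limma). With median-ratio scaling Hspd1 fell by 0.97 on the log2 scale (adjusted p = 0.0128), and with GC correction it was -0.57 (adjusted p = 0.266). Hspe1 (Hsp10) had 214, 219, 286 and 151 in P1 and 123, 150, 222 and 192 in P7, a log2 fold change of -0.34 (adjusted p = 0.452). P1 replicate 3 had the highest Hspe1 and the lowest Hspd1 of its stage, and P1 replicate 4 the reverse, so that the ratio of Hspd1 to Hspe1 ran from 0.455 to 1.33 in P1 and from 0.470 to 0.610 in P7. The files give both genes the same span of chromosome 1 (55077835 to 55091307), their exons overlap on opposite strands, and reads may be mixed between them.

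Of the 7 tested Cct genes, which encode subunits of the cytosolic ring, 6 had a negative log2 fold change, and the median was -0.29. None of the 7 was called, and 67.6% of annotated loci were positive. Cct3 was the lowest, with FPKM of 27.7, 28.6, 26.3 and 35.6 in P1 and 15.0, 15.4, 27.3 and 21.6 in P7. Only P7 replicate 3 reached the P1 range, and the log2 fold change was -0.58 (SE 0.22, adjusted p = 0.176 by limma). Cct8, the most abundant Cct gene, had 79.2 ± 16.6 at P1 against 61.4 ± 16.8 at P7 (SD over 4 hearts) and a log2 fold change of -0.38 (adjusted p = 0.388). Cct6a varied most among the P7 hearts, from 35.5 to 115. Its locus in the files also carries Snora15, and its exons overlap those of Psph on the other strand, so its reads may be mixed. Cct7 was the exception, with a log2 fold change of 0.17. With median-ratio scaling all 7 were negative (median -0.54), and Cct2, Cct3 and Cct8 were called, with adjusted p of 0.0157, 0.0144 and 0.0297. With GC correction the median was -0.14 with 6 negative genes and none called. Tcp1, the subunit whose name lies outside the Cct series, had 182 ± 13.0 at P1 against 119 ± 30.8 at P7 (SD over 4 hearts), with every P7 heart below every P1 heart. Its log2 fold change was -0.64 (adjusted p = 0.126), -0.91 with median-ratio scaling (adjusted p = 0.0108) and -0.37 with GC correction (adjusted p = 0.386). Cct6b, known from testis, and Cct8l1 stayed under 1 FPKM.

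**Figure D4:**
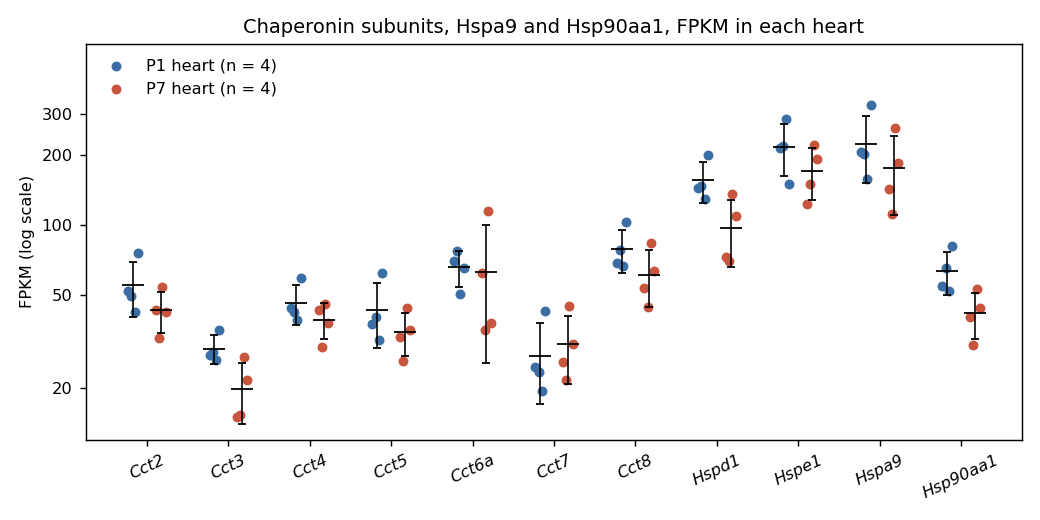
FPKM (log axis) of the 7 tested Cct subunits, Hspd1, Hspe1, Hspa9 and Hsp90aa1, with a dot for each heart (P1 blue, P7 red, n = 4 each) and bars for mean and SD. P7 means lie below P1 means in every gene but Cct7, and the dots of the stages overlap in each gene.

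The J-domain proteins were the most numerous group. The 4 Dnaja genes, general partners of Hsp70, had log2 fold changes of 0.04 to 0.68 with a median of 0.27, and none was called. Of annotated loci 67.6% were positive. With median-ratio scaling Dnaja1 (-0.22) and Dnaja2 (-0.17) were negative, and with GC correction all 4 were positive. Dnaja1 and Dnaja2 were the most abundant, at 55.2 ± 10.46 and 50.5 ± 11.9 in P1 and 56.6 ± 8.93 and 53.9 ± 13.9 in P7 (SD over 4 hearts). Dnaja4 had the largest value, 0.68 (adjusted p = 0.152). Dnaja3, the mitochondrial member, shares its locus in the files with Vasn and its value of 0.44 is uncertain for that reason.

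The 10 tested Dnajb genes had the second highest family median, 0.58 (0.29 with median-ratio scaling and 0.36 with GC correction), and in 6 of them every P7 heart lay above every P1 heart, against 17.3% of annotated loci. With median-ratio scaling this held for 3 of 11 (14.9% of annotated loci), and with GC correction for 5 of 10 (14.7%). Dnajb12 was called. Dnajb2, a neuronal and muscle J-domain protein that binds ubiquitin, had 12.9 ± 1.03 in P1 and 21.8 ± 4.31 in P7 (SD over 4 hearts per stage), with a log2 fold change of 0.70 (SE 0.19, adjusted p = 0.0566 by limma). Dnajb6, which keeps polyglutamine proteins and muscle desmin soluble, had 37.1, 36.2, 30.8 and 36.4 in P1 and 50.3, 41.8, 52.8 and 44.9 in P7. The groups did not overlap, and the log2 fold change was 0.42 (adjusted p = 0.220). Dnajb9 and Dnajb11, J-domain partners of BiP in the endoplasmic reticulum, had log2 fold changes of 0.70 (adjusted p = 0.1002) and 0.73 (adjusted p = 0.0891), beside the 0.02 of Hspa5. With GC correction Dnajb9, whose transcript is AT-rich (40.6% GC), rose by 0.99 and was called (adjusted p = 0.0414).

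Dnajb4, a J-domain protein related to the heat-inducible Dnajb1, was the member that lay lower in every P7 heart. Its FPKM was 52.3, 45.9, 48.5 and 57.0 in P1 and 39.9, 31.9, 45.7 and 38.3 in P7. The log2 fold change was -0.38 (SE 0.18, adjusted p = 0.284 by limma). With median-ratio scaling it fell by 0.64 on the log2 scale (adjusted p = 0.0104), and with GC correction it was -0.12 (adjusted p = 0.704) with overlapping hearts. Dnajb1 itself was weak, at 6.71 ± 2.58 at P1 against 10.49 ± 1.80 at P7 (SD over 4 hearts), with a log2 fold change of 0.62 (adjusted p = 0.192).

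The 24 tested Dnajc genes had log2 fold changes from -0.40 to 1.06 with a median of 0.17, and Dnajc4 was called. The median was -0.06 with median-ratio scaling and 0.30 with GC correction. The most abundant were Dnajc19 and Dnajc15, J-domain proteins of the mitochondrial import motor, at 137 ± 16.9 and 146 ± 10.98 in P1 and 177 ± 39.8 and 167 ± 50.7 in P7 (SD over 4 hearts). Their log2 fold changes were 0.35 (adjusted p = 0.387) and 0.16 (adjusted p = 0.680), and that of Dnajc15 was -0.11 with median-ratio scaling. With GC correction they were 0.63 and 0.37, and neither gene was called. The symbol Dnajc19 stands at 7 loci, so its reads may be divided among copies. Dnajc25 had 37.1 ± 2.60 at P1 against 63.1 ± 13.9 at P7 (SD over 4 hearts), with no overlap and a log2 fold change of 0.73 (adjusted p = 0.0679). With GC correction Dnajc25 rose by 0.90 and was called (adjusted p = 0.04997, just under the threshold), but its locus also holds Gng10. Dnajc13, an endosomal J-domain protein, had a log2 fold change of -0.40, and with median-ratio scaling it fell by 0.64 (adjusted p = 0.0134). With GC correction it was -0.21 and was not called.

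Set side by side, the families made up different parts of the chaperone RNA of a heart. The FPKM summed over the 88 members was 2739 to 3838 at P1 and 2945 to 4718 at P7, and overlapped. The Bag genes held 3.95% to 5.77% of this sum at P1 and 7.59% to 8.70% at P7. The Hspb genes held 9.88% to 15.4% and 15.8% to 19.4%. These families took higher shares at P7 without overlap, as did the Hspb genes without Hspb11 and Hspbp1 (9.20% to 14.5% and 14.9% to 18.5%). The Cct genes held 10.03% to 11.6% in P1 and 7.01% to 8.81% in P7, and Hsp60 with Hsp10 held 9.18% to 15.2% and 5.89% to 8.16%. These took lower shares at P7 without overlap. The shares of Hsp70 (17.3% to 24.3% and 15.6% to 18.9%), Hsp90 (10.9% to 11.96% and 10.2% to 11.04%), Dnaja, Dnajb and Dnajc overlapped between stages. Shares of a heart add up to the whole and depend on each other, and no test was made of them.

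**Figure D5:**
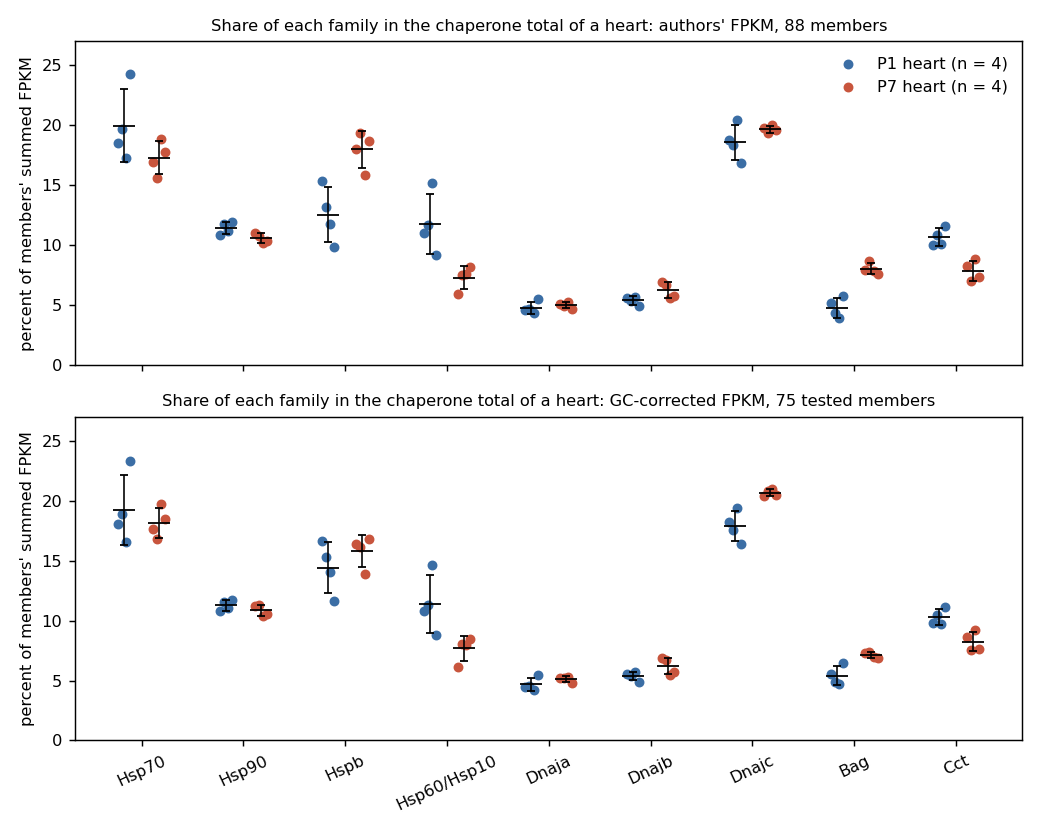
Percent of the members' summed FPKM held by each family in each heart (P1 blue, P7 red, n = 4 each, bars for mean and SD), from the authors' FPKM (top) and after GC correction (bottom). The Hsp110 family by symbol, Hsph1 alone and at under 0.1%, is not drawn. Bag lies higher and Hsp60/Hsp10 and Cct lie lower in every P7 heart in both panels, while Hspb is apart at the top and overlaps at the bottom.

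With GC correction the Bag share was 4.70% to 6.49% at P1 and 6.91% to 7.34% at P7, and the stages were still apart. The same held for the Cct genes (9.74% to 11.2% and 7.55% to 9.21%) and, narrowly, for Hsp60 with Hsp10 (8.80% to 14.6% and 6.15% to 8.50%). The Hspb share overlapped, at 11.6% to 16.7% and 13.9% to 16.8%, and the Dnajc share came apart, at 16.4% to 19.4% and 20.4% to 20.98%. The ratio of summed Hspb to summed Cct FPKM was 0.851 to 1.53 at P1 and 1.80 to 2.76 at P7, but 1.04 to 1.70 and 1.51 to 2.21 with GC correction. Hspb11 and Hspbp1 made up 4.61% to 9.07% of the Hspb sum. The Hspb family has the highest median GC content of the tested members, 56.2%, against 46.7% for the Cct genes.

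Other genes of the chaperone system were counted as a list of 54, which holds further chaperones and co-chaperones, proteases of mitochondria and transcription factors of stress responses such as Hsf1, Atf4, Atf6, Ddit3 and Xbp1. Of the 52 tested, 2 were higher and none lower, or 3.85% against the background of 8.14%, with a median log2 fold change of 0.31. With median-ratio scaling 2 were higher and 2 lower, with a median of 0.07, and with GC correction none was called and the median was 0.25. Serpinh1, the collagen chaperone Hsp47, rose from 70.1 ± 29.5 to 179 ± 48.3 (SD over 4 hearts per stage), or by 1.39 on the log2 scale (SE 0.29, adjusted p = 0.0233 by limma). Atf4, a transcription factor of the integrated stress response, rose from 67.1 ± 15.5 to 119 ± 13.5, a log2 fold change of 0.84 (adjusted p = 0.0460). Both calls were lost with GC correction (adjusted p of 0.0863 and 0.191). Cryab, the small heat shock protein alpha-B crystallin, had 240, 201, 148 and 275 in P1 and 340, 332, 450 and 381 in P7, with no overlap and a log2 fold change of 0.82 (adjusted p = 0.0718). Hsf1 was weak, at 2.51 ± 0.828 at P1 against 4.78 ± 0.819 at P7 (SD over 4 hearts), with a log2 fold change of 0.74 (adjusted p = 0.0795).

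Markers of several cell types differed between the stages. The background of calls was 7.74% higher and 0.401% lower in P7, and with GC correction 2.13% and 0.145%. Of 8 endothelial markers 4 were higher in P7, or 1 with GC correction, and the FPKM summed over the 8 was 146 to 239 at P1 and 281 to 424 at P7. In 1 of them the log2 fold change was negative (-0.43), and every P7 heart lay below every P1 heart. With median-ratio scaling 4 endothelial markers were higher and 1 was lower. Of 8 fibroblast markers 5 were higher, or 4 with GC correction, with sums of 859 to 1760 and 1851 to 2338. Of 7 leukocyte markers 1 was higher, also with GC correction (sums of 18.2 to 25.4 and 37.5 to 51.4). Of 7 smooth muscle and pericyte markers 1 was higher and 1 lower, none with GC correction, with overlapping sums of 303 to 630 and 251 to 383. None of 10 cardiomyocyte, 7 red cell, 5 proliferating cell or 4 atrial markers was called, and none with GC correction; with median-ratio scaling 1 proliferating cell marker was lower. The atrial sum ran from 3900 to 5055 at P1 and from 3898 to 5289 at P7, so that these genes were expressed at both stages. Of 11 tested immediate early genes, which respond to handling and stress, 4 were higher, 3 with median-ratio scaling and 2 with GC correction, and the sum was 75.8 to 89.9 at P1 and 112 to 183 at P7. None of these markers was at 0 in any heart. The part that any of these lists had in the chaperone results was not tested.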

How the data were processed

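Whole hearts of 4 P1 and 4 P7 mice each gave 1 sequenced library. Reads were mapped by a service provider to GRCm38 using the Ensembl 70 gene models, and the authors deposited the resulting FPKM per locus. The aligner is not given in the sources used here. The 43172 loci that reached 1 FPKM in any heart were compared on log2(FPKM + 1) with limma 3.58.1 in R 4.3.3 (lmFit, eBayes with trend, all 8 hearts, no covariates), with Benjamini-Hochberg adjustment over all loci. A fold change on this scale understates that of weak loci. Named were all called members, the 2 most abundant and the 2 of smallest p in each family, and known inducible or cardiac chaperones; other members named were chosen after their values were seen. The members and lists were chosen with earlier results of these data known. Alternatives were a pseudocount of 0.1, other filters, median-ratio scaling, a replicate block, sample quality weights, summed loci, loci naming 1 symbol, and omission of each heart. GC correction removed the lowess trend (span 0.3) of each heart's deviations on the GC content of the longest GENCODE M21 transcript, which was found for 85.9% of annotated loci and all tested members. Loci without a GC value were left uncorrected but stayed in the background and in the adjustment. The scripts were tested on simulated data. Hearts within a stage are different animals. Tables and figures used Python 3.11.15, pandas 2.3.3, numpy 2.4.6 and matplotlib 3.10.9.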

Additional observations from a re-analysis of the deposited data

Results flagged for a closer look

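In 3 groups of 4 hearts the heart at one end lay far from the others, with a gap that exceeded Dixon's critical value as a part of the whole range. In 94 groups tested, about 4.7 such groups are expected by chance at 1 in 20. Hspb1 in P1 had a gap of 0.889, with 133 FPKM in P1 replicate 1 and 95.2 to 99.4 in the other P1 hearts. Dnajb6 in P1 had a gap of 0.866, with 30.8 in P1 replicate 3 and 36.2 to 37.1 in the others. Dnaja4 in P7 had a gap of 0.838, with 47.4 in P7 replicate 3 and 29.3 to 32.2 in the others.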

How the results depend on the processing

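The log2 fold changes of the 6 called members kept their sign under every alternative run. Members called numbered 6 with a pseudocount of 0.1 (Dnajb2 in place of Hspa2), with loci of a symbol summed and with loci of 1 symbol. Without a filter 3 were called, Bag3, Bag6 and Hspb8 (annotated loci: 620). A filter of FPKM of at least 1 in every heart gave 16, 15 higher (annotated loci: 2573). Sample quality weights gave 14, 14 of them higher (annotated loci: 2951), with Hsph1 at 0.024. Leaving out P1 replicate 4 and P7 replicate 3, the hearts of highest scale (chosen after seeing the data), gave 10, 10 of them higher, with Dnajc15 at -0.083. Median-ratio scaling gave 13, 7 of them lower, and medians of -0.044 over members, -0.33 for Hsp90, 0.16 for Hspb, 0.29 for Dnajb and -0.064 for Dnajc. Of 75 members 16 turned negative there and none positive, none of them called in either setting, among them Dnaja1 (-0.22), Dnaja2 (-0.17), Dnajc15 (-0.11), Hspa5 (-0.25) and Hspa8 (-0.0053). GC correction gave 3, 3 of them higher (annotated loci: 408), and medians of 0.20 for Hsp90, 0.15 for Hspb and 0.36 for Dnajb, and 15 members changed sign, 10 to positive and 5 to negative, none of them called in either setting, among them Hsp90b1 (0.20), Hspb1 (-0.18), Hspb2 (-0.016) and Hsph1 (0.080).

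With single hearts omitted, 1 to 15 members were called, 1 to 15 of them higher, and 167 to 2835 annotated loci. The count of members was 15 when P1 replicate 4 was omitted, 1 when the heart omitted was replicate 2 of P1 or replicate 1 or 3 of P7, and 2 to 4 for the others. Log2 fold changes then ran from -0.060 to 0.16 for Dnaja1, -0.068 to 0.23 for Dnaja2, -0.030 to 0.28 for Dnajc15, -0.15 to 0.063 for Hsp90b1, -0.13 to 0.20 for Hspa5 and -0.17 to 0.051 for Hsph1. The cause was not tested.

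With the replicate number as a block, 4 members were called (Bag3, Bag6, Dnajc4 and Hspb8) and 1052 annotated loci. The hearts share only a number: deviations of same-numbered hearts correlated at -0.184 to 0.164, and 1 of 4 P1 hearts correlated best with its own number. No counts are in the files, so what depth limits could not be computed.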
